A study of Mus musculus with 10 samples.

Results

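The genes of heart muscle were examined in whole mouse lung. The set held 10 genes, chosen by gene symbol from the 24059 symbols of the count table, and all 10 symbols were present in it. Myh6, Myl7, Myl4 and Sln are genes of atrial muscle and the muscle of the pulmonary vein, here named atrial genes. Of these, Myh6 is not specific to the atrium, since the ventricle of adult mice also uses it. Myl2 and Myl3 encode the light chains of ventricular myosin, and Tnnt2, Tnni3, Actc1 and Ttn are used by every heart muscle cell. Myl3 and Ttn were put in the set because of their values in these mice and the values of Tnnt2 were also known, so their differences between diets are given as a description without a test.

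RNA was sequenced from 10 lungs, each from 1 mouse, with 5 mice in the fish oil group (FO) and 5 in the coconut oil group (CO). All mice were female C57Bl/6, 14 weeks of age, without any genetic change named in the labels. They ate for 8 weeks a semipurified high-fat diet, described for both groups as 19% fat and 0.2% cholesterol by weight. The study's detailed diet composition, however, lists less cholesterol in the FO than in the CO diet. In the FO diet the fat was menhaden fish oil with some corn oil, a source of n-3 polyunsaturated fatty acids, and in the CO diet it was mostly saturated fat from coconut oil with olive and corn oil. There was no group on standard chow, the airways of all mice were challenged in a lung function test before the lungs were taken, and lungs were flushed with PBS. The labels do not say whether heart, large veins or other tissue at the hilum was trimmed away.

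In mice, the wall of the pulmonary vein carries a sleeve of striated heart muscle that runs from the left atrium into the lung. Its cells resemble atrial cardiomyocytes: they use the alpha heavy chain of myosin (Myh6), the atrial light chains Myl7 and Myl4, and sarcolipin (Sln), a small inhibitor of the calcium pump of the sarcoplasmic reticulum. Ventricular muscle of adult mice shares Myh6. In place of Myl7 and Myl4 it uses the regulatory light chain Myl2 and the essential light chain Myl3. Both Myl2 and Myl3 are also light chains of slow skeletal muscle. Troponin T (Tnnt2) and troponin I (Tnni3) belong to the calcium switch of the thin filament, Actc1 is its cardiac actin, and Ttn encodes titin, the elastic giant of the sarcomere, which skeletal muscle shares.

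The libraries were shallow. They held from 229766 to 1124963 counts, and the ribosomal precursor gene Rn45s took from 21.8% to 87.0% of them, which left between 45177 and 473254 counts on all other genes. A floor of 3 counts in 1 mouse corresponded to between 2.33 and 15.6 CPM, where CPM is the count scaled to the TMM-adjusted library size with Rn45s included. Floors cover counting error only. FO mouse 2 and CO mouse 5 stood apart in the nuclear RNA Malat1, which held 8.53% and 6.15% of their counts outside Rn45s and at most 1.05% in the other 8 mice, and results that rest on them are given with and without them. All 13 lung markers on a list of textbook markers had counts, and surfactant protein C (Sftpc) stood at 1096 ± 343 CPM in FO and 795 ± 425 CPM in CO lungs (SD, n = 5 each).

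The members are spread over 7 chromosomes. By the RefSeq annotation of GRCm38.p6, the build that mm10 names, Myh6 lies at chr14:54941921-54968017, Myl7 at chr11:5896637-5898782, Tnni3 at chr7:4518305-4522718, Actc1 at chr2:114047282-114052875 and Ttn at chr2:76703980-76982557, all on the minus strand. On the plus strand are Myl4 at chr11:104546017-104587215, Sln at chr9:53850251-53853849, Myl2 at chr5:122092724-122113473, Myl3 at chr9:110763678-110769802 and Tnnt2 at chr1:135836315-135852268. Counts were made over the exons of each gene. Of all stretches of 50 bases in Myh6 exons, 20.2% occur also in another gene, chiefly Myh7, the beta heavy chain, so reads of these 2 genes could be exchanged or lost in counting. For each of the other 9 members that share was at most 2.46%, reached in Myl3, whose exons overlap those of Pth1r on the opposite strand by 95 bases. Exons of Tnni3 overlap those of Dnaaf3 by 86 bases, and exons of Ttn overlap those of the antisense gene Gm13938 by 453 bases, and the strand setting of the counting is not given in the sources used here.

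The promoters of 3 members are shown because these genes carry the results below: Myl3 and Tnni3, which stood higher in FO lungs, and Myl7, which had the highest level for its exon length. Each is the RefSeq window of 300 bases, from 250 before to 50 after the transcription start, in build GRCm38.p6 and read along the gene. They are at chr9:110763428-110763727 (plus strand) for Myl3, chr7:4522479-4522778 (minus strand) for Tnni3 and chr11:5898733-5899032 (minus strand) for Myl7. Capitals mark matches on either strand to the CArG box, the motif of serum response factor, to GATAA, the core of GATA factor motifs, and to TATAAA.

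Myl3: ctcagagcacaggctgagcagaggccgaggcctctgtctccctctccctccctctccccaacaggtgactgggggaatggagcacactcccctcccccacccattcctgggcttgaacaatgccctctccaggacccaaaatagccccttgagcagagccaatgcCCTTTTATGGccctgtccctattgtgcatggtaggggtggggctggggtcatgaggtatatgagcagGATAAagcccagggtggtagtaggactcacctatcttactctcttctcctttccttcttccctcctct

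Tnni3: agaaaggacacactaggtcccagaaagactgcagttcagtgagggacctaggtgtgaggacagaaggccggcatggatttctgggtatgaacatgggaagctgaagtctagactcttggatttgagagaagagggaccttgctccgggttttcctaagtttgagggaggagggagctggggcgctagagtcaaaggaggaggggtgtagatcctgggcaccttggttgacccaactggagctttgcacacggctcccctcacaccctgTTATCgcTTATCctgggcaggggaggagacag

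Myl7: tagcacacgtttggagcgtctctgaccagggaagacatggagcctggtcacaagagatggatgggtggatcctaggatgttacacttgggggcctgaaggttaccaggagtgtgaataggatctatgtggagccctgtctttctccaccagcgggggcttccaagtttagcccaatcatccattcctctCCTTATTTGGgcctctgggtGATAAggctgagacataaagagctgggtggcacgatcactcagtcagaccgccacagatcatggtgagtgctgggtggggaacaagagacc

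The Myl3 and Myl7 windows each held 1 CArG box and 1 GATAA. The CArG box began 85 bases before the start in Myl3 and 61 bases before it in Myl7. In Tnni3 a pair of GATAA matches lay within the transcribed stretch, beginning 18 and 25 bases after the start. Of the 10 members, 9 had such a window (Sln had none), and Myl2 and Tnnt2 had 2, which made 11 windows. A CArG box was held by 3 of the 11 windows, that of Actc1 being the other one, against 1.63% of all 32851 mouse promoter windows in the table. GATAA was found in 5 of the 11 windows, against 25.4% of all windows, and TATAAA in 3 of the 11, against 13.6%. Matches to these motifs shared no bases with each other. The motifs were chosen after the sequences had been seen, and a match is a description of the letters only.

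Whole lung gave reads for 9 of the 10 members. Myh6 had the most, 339 counts over all mice, followed by Ttn with 211, Tnnt2 with 126, Actc1 with 72, Tnni3 with 70, Myl3 with 50, Myl7 with 38, Myl4 with 23 and Sln with 10. Myl2, the regulatory light chain of the ventricle and of slow skeletal muscle, had 0 counts in every mouse, which allows up to 3 counts, or 2.33 CPM in FO mouse 2, the library with the lowest floor. Tnni3 and Ttn were counted in all 10 mice, Myh6, Tnnt2 and Actc1 in 9, Myl7 in 8, Myl3 in 7, and Myl4 and Sln in 6. In whole tissue, fewer cells of a type and less RNA per cell cannot be told apart.

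Levels of different genes were compared per kilobase of exon, as CPM per kb over all 10 mice. Myl7 was highest at 8.55 CPM per kb, then Actc1 at 6.01, Myh6 at 5.87, Tnni3 at 5.27, Myl3 at 2.89, Tnnt2 at 2.19, Sln at 1.71, Myl4 at 0.811 and Ttn at 0.189. No neighbours in this order differed beyond their spread. The lowest of the 8 exact permutation p-values (sign flips within mice, two-sided) was 0.0586, for Myl4 against Ttn, and the lowest after Benjamini-Hochberg adjustment was 0.281. Both atrial genes Myl7 and Myh6 thus stood in the upper part of the order, beside the shared genes Actc1 and Tnni3, while the other atrial genes, Sln and Myl4, stood near its end. The exon length joins the exons of all annotated transcripts, 4637 bases for Myl4 and 7752 for Tnnt2 but 590 for Myl7. Such a length can exceed that of any single transcript and lower the level per kb, so the order depends on the annotation.

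**Figure D1:**
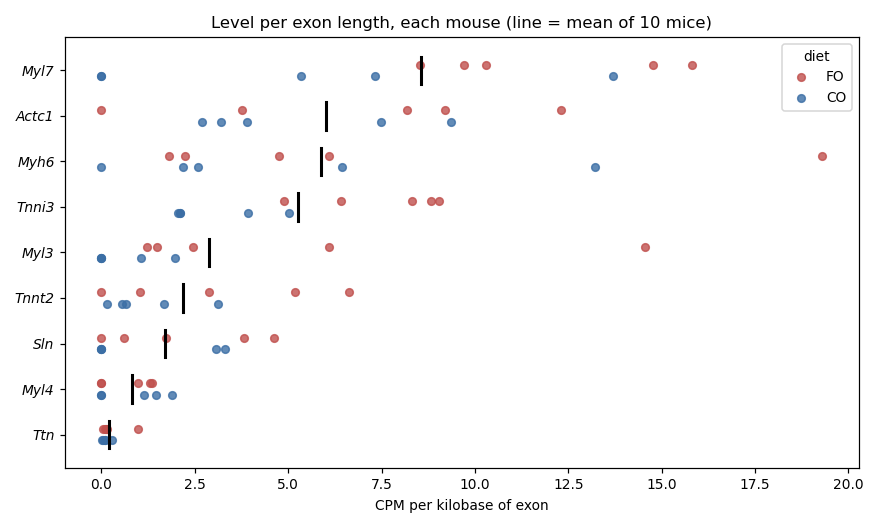
Level of each member per exon length (x axis, CPM per kilobase of exon) in each of the 10 mice, FO in red and CO in blue, with a black line at the mean of the 10 mice. Mean levels run from 8.55 for Myl7 to 0.189 for Ttn, and the mice of neighbouring genes overlap.

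Among the atrial genes, Myh6 varied most in CPM between mice. Its level in FO mice 1 to 5 was 32.1, 130, 15.1, 41.1 and 12.1 CPM, and in CO mice 1 to 5 it was 0, 17.5, 43.3, 14.7 and 88.9 CPM. The groups overlapped widely, and each had 1 mouse far above the others, FO mouse 2 and CO mouse 5. The means were 46.0 ± 48.4 CPM in FO and 32.9 ± 35.0 CPM in CO (SD, n = 5 each), with a log2 fold change of FO over CO of 0.47 in the edgeR quasi-likelihood fit over all genes (SE 0.33, edgeR p = 0.154, adjusted p = 0.905, two-sided exact permutation p = 0.532) that went to -0.35 without FO mouse 2 and to 1.31 without CO mouse 5, the latter past the threshold, as it was without FO mouse 3 (0.67) or FO mouse 5 (0.72). Without both mice it was 0.47 (SE 0.42).

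Myl7, the regulatory light chain of atrial myosin, was counted in every FO mouse and in 3 of the 5 CO mice. Its level was 5.73, 9.33, 5.03, 8.71 and 6.07 CPM in FO mice 1 to 5 and 0, 0, 4.33, 3.16 and 8.08 CPM in CO mice 1 to 5. All 5 FO mice lay above the CO median and 2 lay above every CO mouse, but the floors of the CO mice at 0, 15.6 and 13.1 CPM, were above every FO value. The means were 6.97 ± 1.92 CPM in FO and 3.11 ± 3.37 CPM in CO (SD, n = 5 each), with a log2 fold change of 0.84 (SE 0.70), and neither edgeR (p = 0.228, adjusted p = 0.905) nor the two-sided exact permutation test of log2 CPM (p = 0.0556) passed the threshold. The smallest p that 5 mice against 5 allow is 0.00794.

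The remaining atrial genes were at the limit of detection. Myl4 had 4, 0, 0, 5 and 2 counts in FO mice and 0, 2, 0, 5 and 5 counts in CO mice, and its mean was 3.37 ± 3.15 CPM in FO and 4.14 ± 3.98 CPM in CO (SD, n = 5 each, log2 fold change -0.38, SE 0.79, edgeR p = 0.631, exact permutation p = 0.714). Sln had at most 3 counts in any mouse, 6 in all FO mice and 4 in all CO mice (log2 fold change 0.28, SE 1.09, edgeR p = 0.796, exact permutation p = 0.460). For both, a difference was not detectable at this depth.

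Ventricular light chain reads came from Myl3 alone. Myl3 had 26, 16, 1, 2 and 1 counts in FO mice 1 to 5 and 0, 0, 1, 0 and 3 counts in CO mice 1 to 5. In CPM these were 29.8, 12.4, 5.03, 2.49 and 3.04 in FO and 0, 0, 2.16, 0 and 4.04 in CO. FO mice 1 and 2 were far above all others, FO mouse 3, with 1 count, lay just above the CO mice, and FO mice 4 and 5 lay among them, so that the groups overlapped. As a description, the mean was 10.6 ± 11.5 CPM in FO and 1.24 ± 1.82 CPM in CO (SD, n = 5 each), with a log2 fold change of 2.80 (SE 0.76) that rests on 4 CO counts. It was 1.95 without FO mouse 1, 2.83 without FO mouse 2 and 4.003 without CO mouse 5.

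Of the shared sarcomere genes, Tnni3, the cardiac troponin I, was the most even within groups. Its level was 17.2, 13.2, 10.1, 18.7 and 18.2 CPM in FO mice 1 to 5 and 10.4, 4.36, 4.33, 4.21 and 8.08 CPM in CO mice 1 to 5. FO mice 1, 2, 4 and 5 lay above every CO mouse in CPM. FO mouse 3, with 2 counts, lay just under CO mouse 1, also with 2 counts. CO mice 2 and 3 had 1 and 2 counts, and the floor of 3 counts was exceeded in 4 FO mice but only 2 CO mice. The floors of CO mice 1 and 2 were 15.6 and 13.1 CPM, beside 13.2 CPM in FO mouse 2, so FO mouse 2 was not clearly above them. The mean was 15.5 ± 3.71 CPM in FO and 6.27 ± 2.82 CPM in CO (SD, n = 5 each). Tnni3 was higher in FO, with a log2 fold change of 1.39 (SE 0.56, edgeR p = 0.0132), and the two-sided exact permutation test gave p = 0.0159, but after adjustment over all genes p was 0.905. Without FO mouse 2 and CO mouse 5, the mice with high Malat1, it was 1.72 (edgeR p = 0.00701, exact permutation p = 0.0571 where 0.0286 is the smallest possible). With scaling to library size alone it was 0.92 and did not pass (adjusted p = 0.835), in a fit where the median of all genes moved from 0.05 to -0.43, and relative to that median Tnni3 stood at 1.35. The set of members was chosen with earlier results of these data known, so these p-values are not independent support.

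Tnnt2, the cardiac troponin T, had 8.02, 51.3, 40.2, 22.4 and 0 CPM in FO mice 1 to 5 and 5.19, 4.36, 13.0, 1.05 and 24.2 CPM in CO mice 1 to 5. FO mice ran from the lowest to the highest value of all 10 mice, and CO mouse 5 was above 3 of the FO mice. The mean was 24.4 ± 21.5 CPM in FO and 9.57 ± 9.30 CPM in CO (SD, n = 5 each), a log2 fold change of 1.24 (SE 0.45) that was 0.62 without FO mouse 2 and 2.19 without CO mouse 5.

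Actc1, cardiac actin, had 14.9, 13.2, 0, 19.9 and 6.07 CPM in FO mice 1 to 5 and 5.19, 4.36, 15.1, 6.31 and 12.1 CPM in CO mice 1 to 5, and the groups overlapped. The means of 10.8 ± 7.82 and 8.63 ± 4.75 CPM (SD, n = 5 each) gave a log2 fold change of 0.45 (SE 0.53, edgeR p = 0.394, exact permutation p = 0.905), which was -0.028 with scaling to library size alone.

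Ttn, the longest member with 116825 bases of exon, depended on 1 library. It had 14, 148, 2, 11 and 2 counts in FO mice and 2, 1, 5, 2 and 24 counts in CO mice, or 16.0, 115, 10.1, 13.7 and 6.07 CPM in FO and 10.4, 4.36, 10.8, 2.10 and 32.3 CPM in CO. FO mouse 2 was above all other mice and CO mouse 5 was second, and both are the mice with high Malat1. The mean was 32.2 ± 46.5 CPM in FO and 11.996 ± 11.97 CPM in CO (SD, n = 5 each), a log2 fold change of 1.501 (SE 0.40) that was -0.0016 without FO mouse 2 and 1.09 without both mice. The part of nuclear RNA in these values was not tested.

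**Figure D2:**
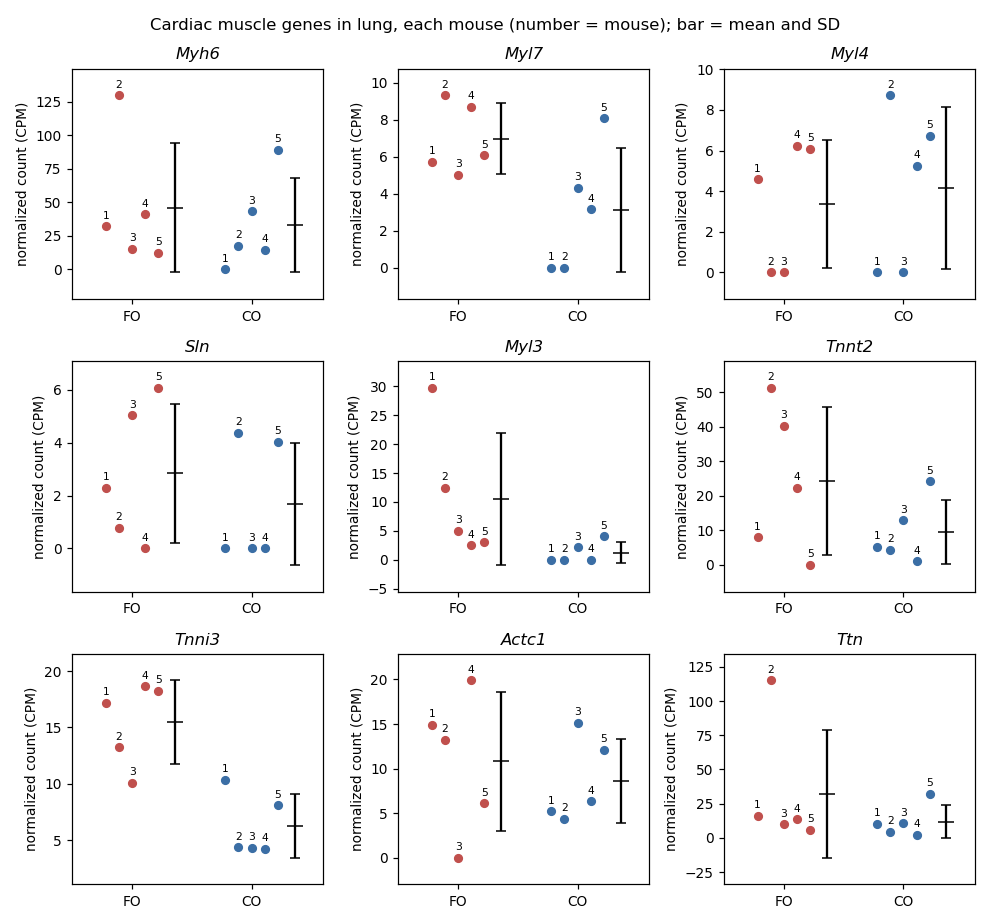
Level of each of the 9 counted members (y axis, CPM) in FO (red) and CO (blue) mice, numbered within each group, with the mean and SD as a black bar beside each group. In CPM Tnni3 separates 4 of 5 FO mice from every CO mouse, but CO mice 1, 2 and 3 had at most 2 Tnni3 counts. Myl3 is high in FO mice 1 and 2, and Ttn and Myh6 are highest in FO mouse 2 and CO mouse 5.

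In the fit over all genes, 4 of the 9 counted members passed an unadjusted p of 0.05, here named called, and 0 passed after adjustment. The same threshold called 4.15% of the 14161 genes tested, 587 in all, with 2.58% higher and 1.57% lower in FO. With the default filter for low counts it called 2.91% of 2438 genes and with DESeq2 0.975% of 14161. All 4 members were higher in FO, but Myl3, Ttn and Tnnt2 among them had been chosen with their values known, and nothing is read from that count. Of the other 6 counted members 1 was called, Tnni3. The median log2 fold change of these 6 was 0.46, beside 0.05 for all genes. Over all genes the calls were split into 365 higher and 222 lower with TMM, 85 and 495 with library size alone, and 217 and 251 with limma-voom. No member separated all FO from all CO mice, which 0.424% of genes did.

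**Figure D3:**
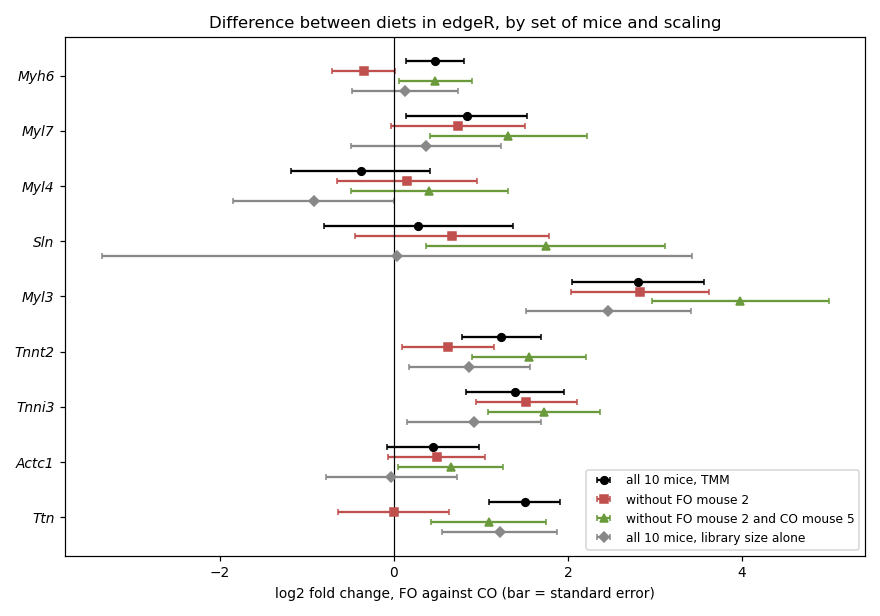
Log2 fold change of FO against CO (x axis) for each counted member in edgeR, with the standard error as a bar, for all 10 mice with TMM scaling (black), without FO mouse 2 (red), without FO mouse 2 and CO mouse 5 (green), and for all mice scaled to library size alone (grey). Myl3 stays above 2 in each of these 4 fits, whereas Ttn moves from 1.501 to -0.0016 and Myh6 from 0.47 to -0.35 when FO mouse 2 is left out.

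The members were not all highest in the same mice, although the sums of the atrial and of the shared genes were. Of the 410 reads of the 4 atrial genes, 339 were of Myh6. The 4 atrial genes summed to between 25.1 and 140 CPM in FO mice and between 0 and 108 CPM in CO mice. The highest mouse of each group was FO mouse 2 and CO mouse 5. The 4 shared genes summed to between 30.4 and 193 CPM in FO and between 13.7 and 76.8 CPM in CO, with the same mice on top. Myl3 differed from both, since FO mouse 1 held the most Myl3 and only 44.7 CPM of atrial genes, less than CO mouse 3 with 47.6 CPM.

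FO mice 1 and 2 together held 84.0% of all Myl3 reads, 42 of 50, against 38.7% of all reads outside Rn45s. They held 76.8% of Ttn, 57.9% of Tnnt2 and 57.5% of Myh6 reads, but 45.7% of Tnni3, 44.7% of Myl7, 41.7% of Actc1 and 17.4% of Myl4 reads. FO mouse 2 and CO mouse 5 held 81.5% of Ttn, 68.7% of Myh6 and 66.7% of Tnnt2 reads, against 39.0% of all reads outside Rn45s, and 19 of 50 Myl3 reads and 32.9% of Tnni3 reads. Most Myl3 reads were thus in FO mice 1 and 2 and most Ttn, Myh6 and Tnnt2 reads in FO mouse 2 and CO mouse 5. Tnni3, Actc1 and Myl7 were held close to the share of all reads. Both pairs were named with the values of these mice known, so the high shares are a description and no test.

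**Figure D4:**
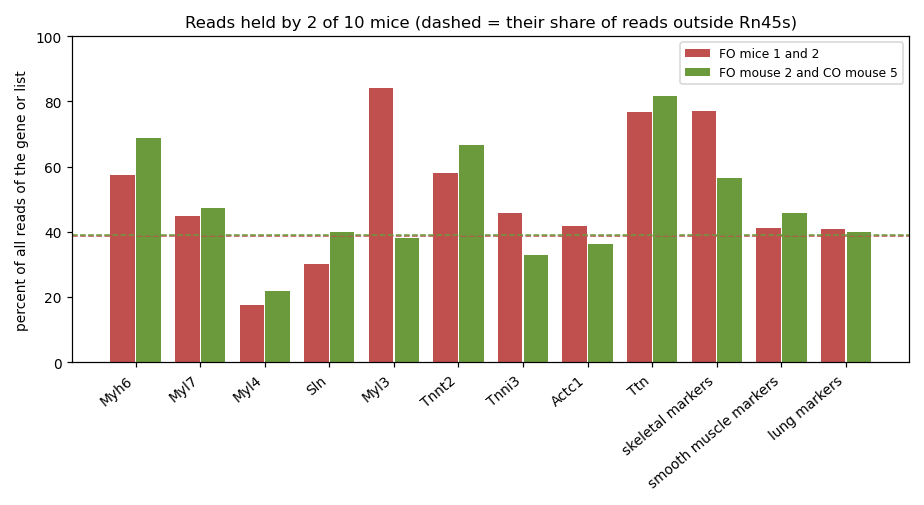
Percent of all reads of each member, or of each marker list, that were counted in FO mice 1 and 2 (red) or in FO mouse 2 and CO mouse 5 (green), with dashed lines at the share of all reads outside Rn45s that the same mice hold, 38.7% and 39.0%. Myl3 and the skeletal muscle markers are concentrated in FO mice 1 and 2, at 84.0% and 77.2%. The pairs were named with the values known.

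Across the 10 mice Myh6 had the highest Pearson r with Myl7 of the 8 other counted members, but not the highest Spearman rho (log2 CPM, Pearson r = 0.76, permutation p = 0.00831, adjusted over the 8 pairs p = 0.0665, Spearman rho = 0.64, permutation p = 0.0514, adjusted p = 0.137). Without CO mice 1 and 2, the mice farthest from the Myl7 median and both at 0 for it, the r of Myh6 was 0.70. For Ttn r was 0.58 and rho 0.72, and for Myl3 r was 0.61 and rho 0.72, both above Myh6 by rho. Without those mice r rose to 0.79 for Ttn, above Myh6, and fell to 0.39 for Myl3. The r of Tnni3, Tnnt2 and Actc1 lay between 0.46 and 0.52, and Myl4 and Sln showed 0.02 and 0.06. No pair passed 0.05 after adjustment, and mice share depth and scaling across genes.

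Markers of skeletal muscle, like Myl3, had most of their reads in FO mice 1 and 2. These markers, 21 textbook genes of that tissue, summed to 109, 121, 10.1, 17.4 and 6.07 CPM in FO mice 1 to 5 and to 5.19, 26.2, 15.1, 14.7 and 37.7 CPM in CO mice 1 to 5. FO mice 1 and 2 held 250 of their 324 reads, or 77.2%. Likeness to Myl3 was not close in every mouse, since CO mouse 2 had 26.2 CPM of markers and 0 of Myl3. FO mouse 2 had more of the markers than FO mouse 1 but less Myl3. Whether the markers and Myl3 vary together was not tested. Of the 16 markers with any count, 5 were called higher in FO, 1 lower and 10 were not called, with a median log2 fold change of 1.34. The called share was 37.5%, beside 4.15% of all genes tested. The list was chosen with earlier results of these data known, so the share is a description. The markers Myh2, Actn3, Tnni1, Myot and Pvalb had no count, and all protein-coding genes of chromosome 15, where Pvalb lies, were listed at 0. Without FO mouse 2 only 2 of the markers were called, Tnnc2 and Acta1, and DESeq2 called 0 of them. The part of skeletal muscle RNA in the values of Myl3, Ttn and Tnnt2, which were also high in FO mouse 2, was not tested.

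The skeletal genes called higher had most of their reads in the same mice, but not every marker did. Tnnt1, the slow troponin T, had 2, 2, 0, 0 and 0 counts in FO mice 1 to 5. In CO mice 1 to 5 it had 0, 1, 2, 2 and 1 counts, and it was named after its values were seen. Tnnc2, the fast skeletal troponin C, had 19 and 18 counts in FO mice 1 and 2 and 1 count in the other 8 mice together (called higher, adjusted p = 0.311). Skeletal actin Acta1 had 25 counts in each of FO mice 1 and 2, 2 in the other FO mice and 6 in all CO mice (log2 fold change 2.34, SE 0.69, called higher, adjusted p = 0.683). The fast troponin T Tnnt3 had 12 and 42 counts in FO mice 1 and 2 and at most 7 in any other mouse (log2 fold change 2.07, SE 0.64, called higher, adjusted p = 0.824). Mybpc1, the slow myosin-binding protein C, had 7 counts in FO and 0 in CO mice (called higher, adjusted p = 0.905). The fifth marker called higher, the fast heavy chain Myh1, had 4 and 7 counts in FO mice 1 and 2 and 1 in CO mouse 5, and the marker called lower, Ampd1, a muscle AMP deaminase, had 0 counts in FO and 3 in CO mice, and both were named after their values were seen. Tnni2, the fast troponin I, at 8.29 ± 8.14 CPM in FO and 5.28 ± 1.11 CPM in CO (SD, n = 5 each), had one of the highest mean levels of the list and was not called (adjusted p = 0.905).

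**Figure D5:**
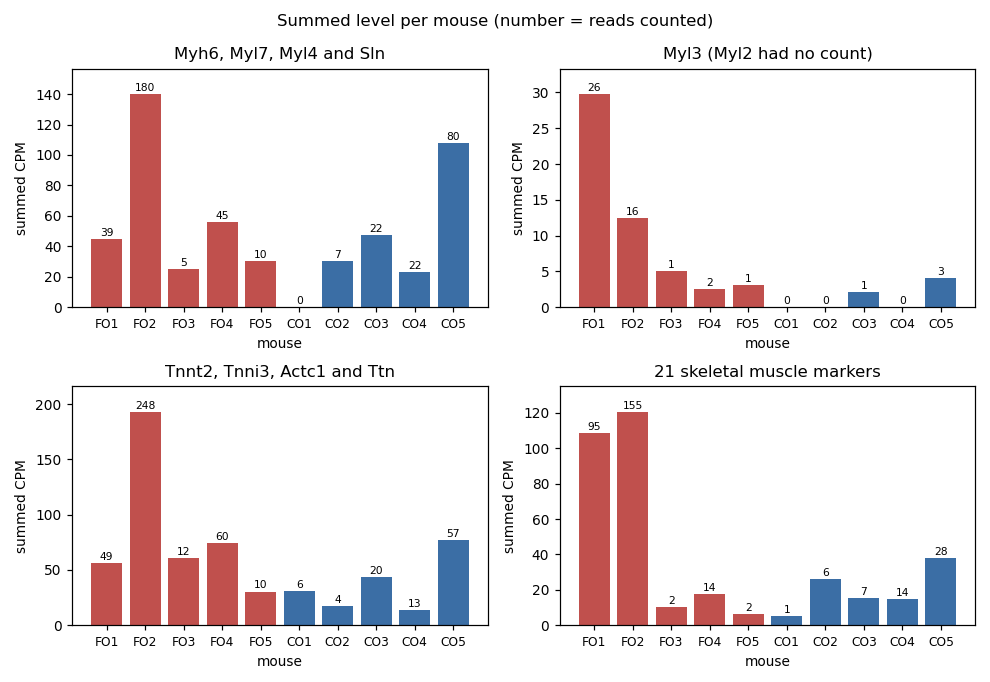
Summed level (y axis, CPM, from 0) in each of the 10 mice, FO in red and CO in blue, of the atrial members, of Myl3, of the shared sarcomere members and of 21 skeletal muscle markers, with the number of reads above each bar. Atrial and shared genes peak in FO mouse 2 and CO mouse 5, whereas Myl3 and the skeletal markers peak in FO mice 1 and 2.

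Other genes of heart muscle were taken from a list of 68, of which 56 had any count and 20 of those had under 10. In this list 1 gene was called higher in FO and 0 were called lower. The called share was 1.79% of the 56, beside 4.15% of all genes tested. The median log2 fold change was 0.38, beside 0.05 for all genes. This median was 0.07 without FO mouse 2, 0.84 without CO mouse 5, -0.04 with scaling to library size alone and -0.11 with limma-voom, so that it rested on single libraries and on the scaling. The called gene was Myom1, a protein of the M band that skeletal muscle also uses, with 8, 39, 0, 1 and 0 counts in FO mice and 1, 1, 2, 2 and 3 counts in CO mice. Its mean was 8.15 ± 13.0 CPM in FO and 4.004 ± 1.15 CPM in CO (SD, n = 5 each, log2 fold change 1.53, SE 0.65, adjusted p = 0.905), with FO mouse 2 again far above the rest. Without FO mouse 2 its log2 fold change was 0.06 and the call was lost, when 0 genes of the list were called. Without CO mouse 4 the count was also 0, and without CO mouse 5 it was 6.

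Further atrial genes were thinly counted, with 5 of 12 having any count and 0 called. The atrial peptide Nppa had 13 counts in FO and 8 in CO mice (log2 fold change 0.34, SE 0.85), and Tbx5, a transcription factor of atrium and lung, stood at 25.3 ± 7.65 CPM in FO and 23.0 ± 10.1 CPM in CO (SD, n = 5 each). Nppb, Bmp10, Kcnj3, Shox2, Hcn4 and Sbk2 were among those with no count. Of the ventricular list of 3, Myh7 had 7 counts in FO and 5 in CO mice, Hey2 had 4 and 4, and Irx4 had none, so that apart from Myl3 none of these ventricular genes had more than 12 counts in all.

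Of 23 further sarcomere genes 21 had counts, with Tpm1, a tropomyosin that smooth muscle also makes, at 286 ± 52.5 CPM in FO and 233 ± 74.3 CPM in CO (SD, n = 5 each, adjusted p = 0.917), and Pdlim5, a Z-disc protein, at 45.2 ± 9.55 and 40.7 ± 15.2 CPM (adjusted p = 0.995). All 14 genes of calcium handling and excitation had counts and 0 were called. The calcium pump Atp2a2 stood at 39.6 ± 31.8 CPM in FO and 30.04 ± 14.96 CPM in CO (adjusted p = 0.905), and triadin (Trdn) at 9.43 ± 7.93 and 5.73 ± 5.17 CPM (log2 fold change 1.05, SE 0.61, adjusted p = 0.905).

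In the energy list 6 of 7 genes had counts and 0 were called. Fabp3, the heart fatty acid binding protein, stood at 10.2 ± 7.29 CPM in FO and 7.17 ± 5.43 CPM in CO (adjusted p = 0.995), and Cox6a2, a muscle subunit of cytochrome oxidase, had 9 and 10 counts. Myoglobin (Mb) lies on chromosome 15 and its 0 says nothing of its level. Of 9 transcription factors 8 had counts and 0 were called, with Mef2a at 77.6 ± 17.1 CPM in FO and 92.2 ± 31.7 CPM in CO, Mef2c at 53.4 ± 32.5 and 57.9 ± 23.9 CPM (SD, n = 5 each), and no count for Nkx2-5, the early cardiac factor.

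Smooth muscle is the muscle of airways and vessels, and all 14 of its markers had counts. Of these 3 were called higher in FO and 0 lower, or 21.4%, beside 4.15% of all genes tested. This share too is a description. The median log2 fold change was 0.42, with 9 of 14 above 0. The median was -0.16, with 5 of 14 above 0, without FO mouse 2, and -0.14, again with 5 of 14, with scaling to library size alone. The called genes were the smooth muscle heavy chain Myh11 (54.4 ± 67.98 CPM in FO and 28.5 ± 20.8 CPM in CO, log2 fold change 1.003, SE 0.34), smooth muscle actin Acta2 (32.6 ± 15.5 and 16.7 ± 8.05 CPM, log2 fold change 0.997, SE 0.40) and Actg2 (10 counts in FO and 1 in CO), each with an adjusted p = 0.905, and with scaling to library size alone 0 of the 14 were called. Myh11 stood at 174 CPM in FO mouse 2 and at 14.9 to 44.8 CPM in the other FO mice, and without FO mouse 2 its log2 fold change turned to -0.15 and was not called, nor was it without CO mouse 4 (0.67) or without FO mouse 2 and CO mouse 5 (0.40). Acta2 was still called without FO mouse 2 and CO mouse 5 but not without FO mouse 4 (0.86), and Actg2 was not called without FO mouse 1 or without any one of CO mice 1, 2, 3 and 5. The most abundant ones, Mylk at 185 ± 25.7 CPM in FO and 219 ± 70.9 CPM in CO and Cald1 at 154 ± 50.02 and 157 ± 67.7 CPM, were not called. FO mice 1 and 2 held 41.0% of smooth muscle marker reads and 40.9% of lung marker reads, close to their share of all reads and unlike Myl3.

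Of the 13 lung markers 1 was called, beside 4.15% of all genes tested. It was Cldn18, an alveolar tight junction protein, lower in FO at 134 ± 87.4 CPM against 250 ± 306 CPM in CO (SD, n = 5 each, log2 fold change -0.93, SE 0.28, adjusted p = 0.780). CO mouse 4 alone stood at 778 CPM of Cldn18, the other CO mice at 65.4 to 251.8 CPM, and without that mouse the log2 fold change turned to 0.19 and was not called. The club cell protein Scgb1a1 stood at 1001 ± 280 CPM in FO and 1227 ± 503 CPM in CO (adjusted p = 0.921). Summed lung markers ran from 3344 to 5193 CPM in FO and from 3055 to 4645 CPM in CO.

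The genes most like the members were sought by the Pearson correlation of their log2 CPM with the mean standardized log2 CPM of the 7 members with at least 30 counts, among 6964 genes with at least 30 counts. Over the 10 mice the closest were Gpatch11 (r = 0.95), Ccdc132 (r = 0.92), Mier1 (r = 0.91), Prkg1 (r = 0.90) and Patl1 (r = 0.90). Prkg1 is the cGMP-dependent kinase of smooth muscle and none of the 5 is a sarcomere gene. These are descriptions of likeness over 10 mice that share depth and scaling.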

How the data were processed

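For the lungs of 10 mice the authors deposited 1 table of unnormalized whole-number counts, with a row for each gene symbol. Single-end reads of TruSeq RNA v2 or riboZero libraries (which mouse had which is not given in the sources used here) were aligned with STAR 2.4.0f1 to mm10 and counted with htseq-count, with SAMtools 0.1.19, per the submitters' processing notes. Annotation and strand setting are not given there. Diets came from the sample labels, and all columns were used. Each mouse is a separate animal.

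Genes with any count (14161 of 24059) were tested FO against CO in edgeR 4.0.16 (R 4.3.3, TMM, quasi-likelihood test, common dispersion 0.131) at the study's threshold, an unadjusted p of 0.05, with Benjamini-Hochberg adjusted p over all genes tested. Single members were also tested by exact permutation of log2 CPM (prior count 2) with SciPy 1.17.1, and correlations by 100000 permutations over 8 pairs, since Myl2 had no count. Exon lengths are unions of GENCODE M21 exons. The procedure was tested on simulated data. Alternatives were other filters, scalings, DESeq2 1.42.0, limma-voom (limma 3.58.1), a replicate block and samples left out.

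The members and gene lists were chosen with earlier results of these data known. Named are all members, from each other list up to 4 genes with p under 0.05 by smallest p and the 2 with the highest mean CPM, and the 5 genes most like the members. Same-numbered FO and CO mice are different animals.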

Additional observations from a re-analysis of the deposited data

Results flagged for a closer look

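In 6 of 34 groups of 5 mice the highest mouse stood far above the other 4, by Dixon's ratio of its gap to the group's range (critical value 0.71). Chance alone would give about 1.7 if the groups were independent and normally distributed. Levels near the floor and sums that contain single members need not meet this, so the number by chance is not known here. FO mouse 2 was the highest in 5 of the 6 groups. Its Myh6 level was 129.9 CPM, with the next FO mouse at 41.1 CPM, and its Ttn level was 115.1 CPM, with the next at 16.0 CPM. The summed level in this mouse was 140 CPM for the 4 atrial genes (next 56.0 CPM), 192.8 CPM for the 4 shared sarcomere genes (next 74.6 CPM) and 345.3 CPM for all members (next 133.1 CPM). In the CO group, Ttn in CO mouse 5 was 32.3 CPM, with the next mouse at 10.8 CPM. The sums contain Myh6 and Ttn, so the 5 groups of FO mouse 2 are not independent of each other. Both mice are those with the high Malat1 share, and the part of that in these levels was not tested.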

How the results depend on the processing

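Of the members other than Myl3, Ttn and Tnnt2, Myl7 kept its direction and stayed short of the threshold in all 18 alternatives, and Tnni3 kept its direction and stayed past it in 17. The 4 called members became 0 with edgeR's default filter, which tests only Myh6 among them (log2 fold change 0.46, adjusted p = 0.998), 1 with library size alone, 2 with DESeq2, 2 with limma-voom, 3 with the replicate block, 3 without FO mouse 2 and CO mouse 5, and 2 to 5 with single mice left out, 2 being without FO mouse 2. The 587 called genes became 71 with the default filter, 317 with at least 10 counts, 138 with DESeq2 and 535 to 782 with mice left out. For the other cardiac genes the count of 1 became 0 with the default filter, library size alone, DESeq2 and limma-voom, and 0 to 6 with mice left out, 0 being without FO mouse 2 or CO mouse 4 and 6 without CO mouse 5. The 6 called skeletal markers became 0 with DESeq2, 1 with limma-voom and 2 to 7 with mice left out, 2 being without FO mouse 2, and the default filter left none to test. The 3 called smooth muscle markers became 1 with the default filter, 0 with library size alone, 1 with DESeq2, 1 with limma-voom, 1 without FO mouse 2 and CO mouse 5, and 2 to 4 with mice left out. The exact permutation test called 1 member, Tnni3, and 2 with the raw share of counts outside Rn45s (Myl7 p = 0.0317, Tnni3 p = 0.0238), 1 to 2 with mice left out, 2 being without CO mouse 5, and without FO mouse 2 and CO mouse 5 it called Myl7 (p = 0.0286) and not Tnni3 (p = 0.0571). Correlations with Myl7 that passed adjustment numbered 0, and 0 to 2 with mice left out, 2 being without FO mouse 3 and 1 without FO mouse 5 or CO mouse 2. The log2 fold change turned for Myh6 (-0.35) and Ttn (-0.0016) without FO mouse 2, for Myl4 without FO mouse 2 (0.15) and without it and CO mouse 5 (0.41), for Sln without FO mouse 5 (-0.15) and without CO mouse 4 (-0.23), and for Actc1 with library size alone (-0.028, or 0.40 relative to the median of all genes in that fit, which was -0.43, and -0.11 with limma-voom). Without CO mouse 5 Myh6 was 1.31 and Ttn 2.63, without FO mouse 4 Myl4 was -0.76, and without FO mouse 2 and CO mouse 5 Sln was 1.75. The cause of these changes was not tested. The numbers of the mice do not pair them: the deviations of same-numbered mice correlated at -0.42 to 0.03 (5 pairs, mean -0.12, other pairs 0.03). With the replicate block 183 genes, 3 members, 0 other cardiac genes, 2 skeletal and 1 smooth muscle marker were called. DESeq2 gave no p for Ttn, and its log2 fold change there, 1.37, still included the high count of FO mouse 2. With floors of 2.33 to 15.6 CPM, differences in Sln, Myl4 and Myl2 were not detectable at this depth.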

Other observations

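All 705 protein-coding genes of chromosome 15 in the table were listed at 0 in every mouse, whereas on each of the other 19 chromosomes between 56.1% and 78.3% of such genes had a count. No member lies on chromosome 15, but 2 genes of the lists do, Mb and Pvalb, so their 0 carries no information on their level.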
